A study of Capra hircus with 24 samples.

Results

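The genes described here encode 4 families of secreted or membrane-bound proteins that cut or protect the extracellular matrix: the matrix metalloproteinases (MMP), the disintegrin metalloproteinases (ADAM), their thrombospondin-domain relatives (ADAMTS) and the tissue inhibitors of metalloproteinases (TIMP). Members were all genes in the expression tables whose symbol is MMP, ADAM, ADAMTS or TIMP followed only by a number. They were 59 of 20326 listed genes, made up of 19 MMP, 17 ADAM, 19 ADAMTS and 4 TIMP genes. Of these, 37 reached a normalised value of 1 or more in at least 3 of the 24 libraries and were tested, as 14 MMP, 8 ADAM, 12 ADAMTS and 3 TIMP genes. The same filter kept 13049 genes of the whole table.

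The study sequenced RNA from dermal papilla cells of goat (Capra hircus) skin, bred for cashmere. The papilla is a cluster of mesenchymal cells enclosed by the hair bulb, and it signals to the epithelium that builds the hair. The cells came from secondary follicles, which make the fine cashmere fibre, or from primary follicles, which make the coarse guard hair. Follicles were sampled in June, which the labels call early anagen, or in October, which they call anagen, and anagen is the growth stage of the hair cycle. Crossing follicle type, month and sex gave 8 groups of 3 libraries: secondary cells from females and from males in June, the same in October, and primary cells from females and from males in June and in October. No treatment or genotype is labelled for any group, and neither the age of the animals nor the culture history of the cells is stated in the labels. Below, "secondary females" and the like stand for papilla cells of that follicle type from animals of that sex.

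MMP proteins carry a zinc ion in their active site and are made as inactive precursors, most of them secreted and some anchored in the membrane. Between them they cut fibrillar collagens, gelatin, basement membrane proteins and proteoglycans. ADAM proteins sit in the membrane and release the outer parts of other membrane proteins, such as growth factors of the EGF family and Notch ligands, while ADAMTS proteins are secreted and cut proteoglycans such as versican and aggrecan, or trim procollagens. TIMP proteins bind and block the active site of these enzymes. The hair papilla is embedded in its own matrix, rich in versican and basement membrane proteins, and this matrix is remodelled as the follicle passes through its cycle.

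The values are normalised, and their totals per library lay between 959766 and 1045880. Sequencing depth is unknown, so no counting error could be attached to any value. Pearson correlations over tested genes, which are not independent, were 0.993 to 0.997 between libraries of a group and 0.954 to 0.992 between groups. The labels call the libraries biological replicates but do not say whether they are separate animals or cultures, so p-values measure the spread between these libraries only. EIF2S3 and KDM6A, X-linked genes, were higher in every female group than in every male group. Of 16 papilla markers, 10 to 12 had a group mean of 1 or more. VIM was at 5995 to 10179, while CORIN had group means of 0.0867 to 0.217 and ALPL exceeded 1 in primary females in June only (2.03). SOX2, known from the papillae of coarser hairs in mice, was at 12.4 to 15.9 in the primary groups and at 0.257 to 0.333 in 3 of the secondary groups, but at 14.2 in secondary males in October. These 3 libraries were also closer to those of primary males in October (mean r 0.992) than any other 2 groups were to each other. On this marker they were unlike the other secondary libraries, and no comparison that needs that group could be made without them. Keratinocyte markers summed to 299 to 324 in secondary females in October and to 5.24 to 76.8 in the other groups. Summed immune markers were 52.4 to 59.8 in primary females in June, 37.6 to 43.9 in secondary males in June and 12.1 to 25.5 elsewhere. In bulk RNA, fewer cells of a type and less RNA per cell cannot be told apart.

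Not all family members were expressed. Of the 22 members that were not tested, 4 were listed at 0 in all 24 libraries, namely ADAM7, ADAM18, ADAM29 and ADAMTS15. A further 10 never reached 0.1 in any library: ADAM22, ADAM23, ADAMTS8, ADAMTS13, ADAMTS16, ADAMTS19, ADAMTS20, MMP7, MMP8 and MMP20. The other 8 reached 0.1 but stayed under 1, namely ADAM11, ADAM20, ADAM21, ADAM28, ADAMTS18, MMP17, MMP25 and TIMP4, with 0.89 for MMP17 as the highest value in any library. These low members include MMP8, the collagenase of neutrophils, MMP7, a small secreted enzyme of epithelia, MMP20, an enzyme of tooth enamel, and several ADAM genes known from testis (ADAM18, ADAM20, ADAM21, ADAM29).

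At the other end, 28 of the 37 tested members were at 1 or more in every library. The remaining 9 were ADAMTS3, ADAMTS5, ADAMTS12, MMP3, MMP9, MMP12, MMP13, MMP16 and MMP27. MMP3 reached 1 in 16 libraries, MMP27 in 9, MMP12 in 5 and MMP16 in 4. MMP9 and MMP13 reached 1 in 3 libraries, all of them secondary females in October. A gene that passes the filter only through the group in which it is high has to differ between groups, so counts over tested members are descriptions. In the gene order of the ARS1.2 goat assembly, used here for names only, MMP7, MMP20, MMP27, MMP8, MMP1, MMP3, MMP12 and MMP13 lie next to each other. ADAMTS5 and ADAMTS1 also are neighbours. Within the MMP row of 8, 3 genes were not expressed, and the 5 others are described below.

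The highest group means belonged to an inhibitor and a gelatinase. TIMP1 ranged from 1566 to 2384 over the 8 groups, MMP2 from 955 to 1961, TIMP3 from 269.7 to 1016, TIMP2 from 368 to 500.2 and MMP14 from 259.5 to 532. Whether the values are per transcript length is not given in the sources used here, so an order of levels between genes is a description only. MMP2 made up 72.7% to 80.9% of the summed MMP values of a library and MMP14 14.8% to 21.6%. All members together made up 0.461% of the library total in primary males in October and 0.687% in secondary males in June, on average over 3 libraries. The highest group mean was under 2 times the lowest for 11 tested members and 2 to 5 times the lowest for 17. The other 9, which spread further or were listed at 0 in a group, were ADAM8, ADAMTS4, ADAMTS5, MMP3, MMP9, MMP12, MMP13, MMP16 and MMP27, as the heatmap of library values shows.

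**Figure D1:**
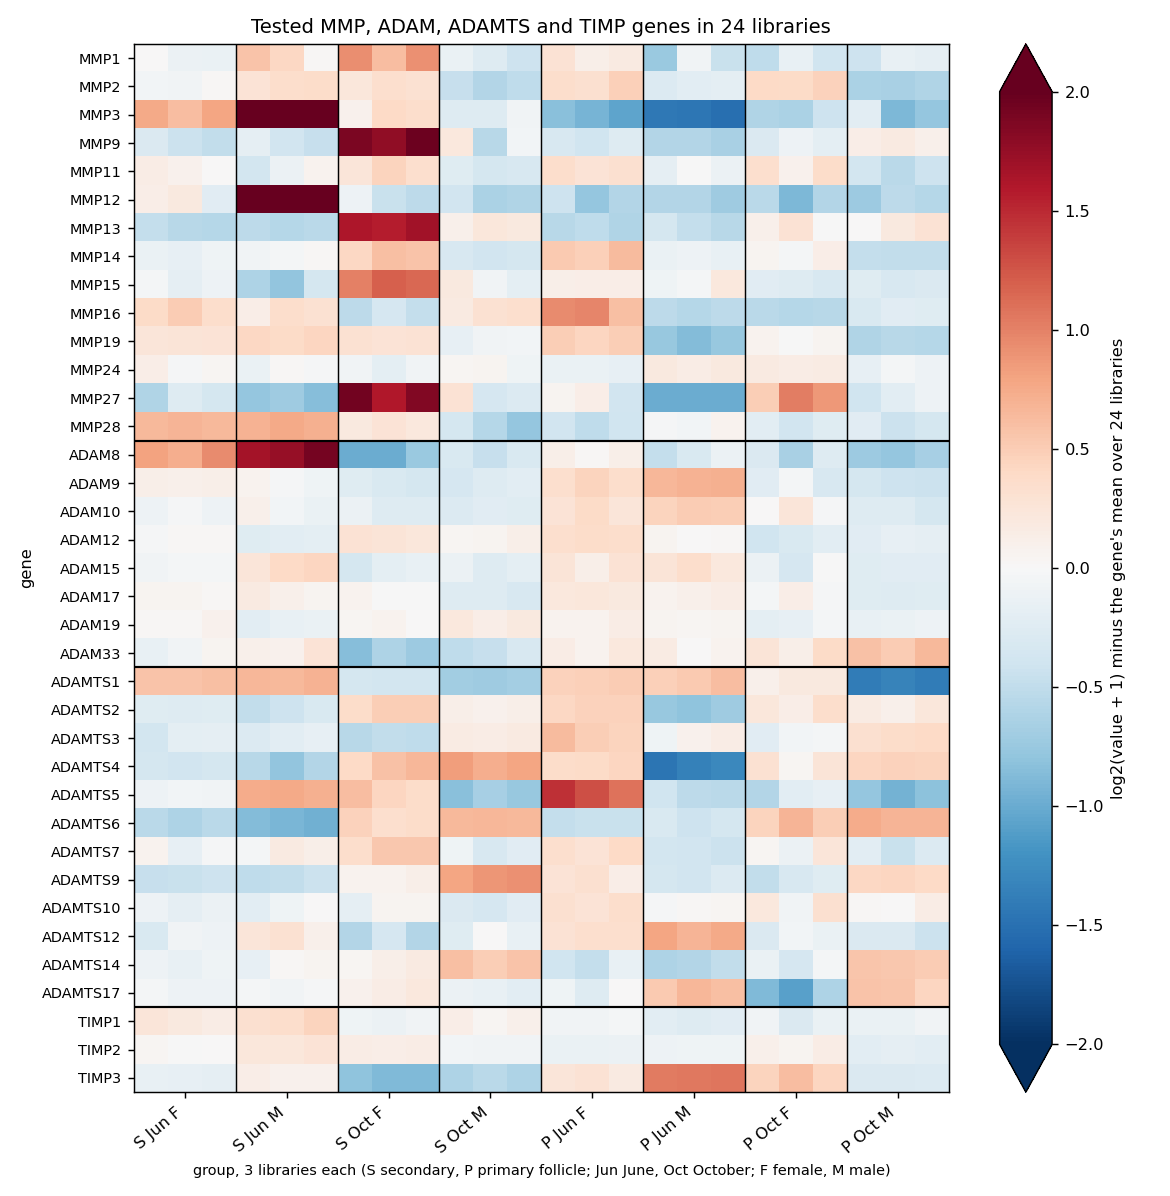
Each of the 37 tested members (vertical axis, by family) in each of the 24 libraries (horizontal axis, 3 per group), coloured by log2(value + 1) minus the gene's mean over the 24 libraries. Red is above and blue below that mean, with colours saturating at 2 either way, so levels cannot be compared between genes. MMP3 and MMP12 are deepest red in secondary males in June, and MMP9, MMP13 and MMP27 in secondary females in October.

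Secondary and primary papilla cells were compared within each month and sex, which asks how the papilla of the cashmere-producing follicle differs from that of the guard hair follicle. More members were called than not in June and in October females, but not in October males, and the direction depended on month and sex. A member was called at a limma adjusted p under 0.05, with p-values adjusted over all 13049 genes. In June females, 29 of 37 members were called, 9 higher in secondary cells and 20 lower, where 49.3% of all tested genes were called (25% higher and 24.3% lower). In June males the call was made for 28 members, 16 higher and 12 lower, against 59.6% of all genes (30.7% higher and 28.9% lower). In October females 28 members were called, 18 higher and 10 lower, against 35.5% of all genes (18.3% and 17.2%). October males gave 16 calls, 11 higher and 5 lower, against 18.5% of all genes (10.9% and 7.63%). As shares of the members, these were 78.4%, 75.7%, 75.7% and 43.2%. Among members with a mean of 10 or more over the 24 libraries, 21, 17, 16 and 13 of 23 were called in these 4 comparisons, where 50.7%, 61.9%, 36.5% and 19% of 8246 genes of that level were called. The median log2 difference of the members was -0.23 in June females, 0.10 in June males, 0.17 in October females and 0.11 in October males, where the median of all genes lay between 0.00 and 0.01.

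By family, the 14 MMP genes split 4 higher in secondary cells and 5 lower in June females, 7 and 2 in June males, 9 and 2 in October females and 3 and 1 in October males. In October females, 9 of the 10 tested keratinocyte markers were also higher in secondary cells and 0 lower, with sums of 299 to 324 against 37.4 to 42.9, and their part in the MMP count was not tested. The 8 ADAM genes split 1 higher and 6 lower in June females, 1 and 4 in June males, 2 and 3 in October females and 3 and 1 in October males. The 12 ADAMTS genes split 2 higher and 8 lower in June females, 6 and 5 in June males, 7 and 4 in October females and 3 and 2 in October males. A called log2 difference of 1 or more was seen for 3, 5, 7 and 1 members in these 4 comparisons, against 4.27%, 7.35%, 3.08% and 0.659% of all genes. MMP12 in June males and MMP9 and MMP13 in October females are among these members. Each passed the filter on low values only through the group in which it was high, so these counts and the MMP counts above are descriptions.

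October was compared with June within each follicle type and sex, which follows the papilla from early anagen to anagen. In secondary females 32 of 37 members were called, 18 higher in October and 14 lower, against 51.3% of all tested genes (24.2% higher and 27.1% lower). Secondary males gave 32 calls, 11 higher and 21 lower, against 56.5% of all genes (25.3% and 31.2%). In primary females 28 were called, 7 higher and 21 lower, against 48.2% (22.7% and 25.6%). In primary males 32 were called, 14 higher and 18 lower, against 55.5% (26% and 29.5%). A called log2 difference of 1 or more was seen for 5, 9, 2 and 7 members in these 4 comparisons, against 3.94%, 6.31%, 2.93% and 5.13% of all genes. These counts are descriptions, since they include MMP9 and MMP13 in secondary females, MMP12 in secondary males and MMP16 in primary females. Each of those genes passed the filter on low values only through the group in which it was high. Among the 8 ADAM genes, 4 fell and 1 rose in secondary females, 6 fell and 2 rose in secondary males, 7 fell and 0 rose in primary females by limma (0 also at an unadjusted p under 0.05), and 7 fell and 1 rose in primary males. Median log2 differences of the members were 0.11, -0.26, -0.21 and -0.07 in this order, where the median of all genes lay between -0.01 and 0.00. All 37 tested members were called in at least 1 of these 8 comparisons, and 7 were called in all 8: ADAM8, ADAM12, ADAMTS1, ADAMTS4, ADAMTS9, MMP3 and TIMP3. Of those 7, ADAM12 and TIMP3 kept all 8 calls when any 1 library was left out, while the other 5 lost at least 1. The shares of all genes called at least once, or in all 8, were not computed, so neither count describes these families in particular. In a single comparison 18.5% to 59.6% of all genes were called.

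The collagenase and stromelysin genes of the MMP row were low in most groups. MMP3 (gene ID 102170893) encodes a stromelysin, an enzyme that cuts proteoglycans and basement membrane proteins and activates other MMP precursors. In June, MMP3 was at 4.5, 3.98 and 4.62 in secondary females, 22.9, 19.7 and 21.2 in secondary males, 0.82, 0.7 and 0.56 in primary females and 0.2, 0.19 and 0.14 in primary males. In October, MMP3 was at 2.45, 3.27 and 3.14 in secondary females, 1.7, 1.72 and 2.09 in secondary males, 1.13, 1.09 and 1.43 in primary females and 1.79, 0.74 and 0.89 in primary males. Secondary males in June stood above all other libraries, secondary females in June came next, and both June secondary groups lay apart from the June primary ones. Secondary minus primary, the log2 difference in June was 1.67 (SE 0.13, limma adjusted p = 2.39e-10) in females and 4.24 (SE 0.13, limma adjusted p = 7.21e-18) in males. In October it was 0.83 (SE 0.13, limma adjusted p = 1.63e-05) in females and 0.44 in males, where the libraries overlapped and the call ended without primary replicate 2 (0.30), primary replicate 3 (0.36) or secondary replicate 3 (0.37), or when both groups were fitted alone (0.44). By October MMP3 fell by 2.97 in secondary males (SE 0.13, limma adjusted p = 5.04e-15) and rose by 0.83 (SE 0.13, limma adjusted p = 8.49e-06) in primary males.

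MMP12 (gene ID 102170339) encodes an elastase first known from macrophages. In June, MMP12 was at 1.04, 1.15 and 0.6 in secondary females, 18.6, 18.8 and 17.4 in secondary males, 0.41, 0.09 and 0.24 in primary females and 0.25, 0.24 and 0.14 in primary males. October values of MMP12 were 0.74, 0.38 and 0.3 in secondary females, 0.43, 0.21 and 0.23 in secondary males, 0.29, 0 and 0.24 in primary females and 0.13, 0.3 and 0.26 in primary males. Secondary males in June formed a group of their own, and every other library was at 1.15 or less. MMP12 reached 1 in 5 libraries, 3 of them this group, and so passed the filter on low values only through it. Its differences from this group are therefore descriptions. Between follicle types the log2 difference in June males was 3.99 (SE 0.13), and from June to October it was -3.91 (SE 0.13) in secondary males. In June females, secondary minus primary was 0.63 (SE 0.13, limma adjusted p = 0.000314). The immune marker CD68 was also highest in secondary males in June, at 18.9 to 24.8 against 2.92 to 10.7 elsewhere, while PTPRC, the pan-leukocyte marker, was listed at 0 there. Primary females in June had the highest summed immune markers, with LAPTM5 at 26.3 to 32.9, and had MMP12 at 0.09 to 0.41.

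MMP1 (gene ID 102170620) encodes an interstitial collagenase, which cuts intact fibrillar collagen. In June, MMP1 was at 4.3, 3.82 and 3.81 in secondary females, 6.78, 6.0 and 4.33 in secondary males, 5.44, 4.72 and 4.95 in primary females and 2.15, 3.99 and 2.84 in primary males. In October, MMP1 was at 8.96, 7.03 and 8.9 in secondary females, 3.8, 3.4 and 2.95 in secondary males, 2.71, 3.74 and 2.99 in primary females and 2.95, 3.73 and 3.65 in primary males. Secondary females in October were highest and did not overlap any other group, and secondary males in June came next on average. The difference between secondary and primary cells was 1.17 (SE 0.15, limma adjusted p = 9.31e-07) in October females and 0.76 (SE 0.15, limma adjusted p = 0.000119) in June males. In June females and October males no call was made, with log2 differences of -0.28 (95% interval -0.58 to 0.02) and -0.02 (95% interval -0.32 to 0.28). The June female difference was called when both groups were fitted alone (limma adjusted p = 0.017). By October MMP1 rose by 0.90 (SE 0.15, limma adjusted p = 2.19e-05) in secondary females and fell by 0.60 in secondary males (SE 0.15, limma adjusted p = 0.0013).

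MMP27 (gene ID 102171174) encodes a little-studied secreted member of the same row. In June, MMP27 was at 0.31, 0.66 and 0.55 in secondary females, 0.16, 0.22 and 0.1 in secondary males, 1.07, 1.18 and 0.53 in primary females and 0, 0 and 0 in primary males. In October, MMP27 was at 6.6, 5.02 and 6.17 in secondary females, 1.42, 0.57 and 0.64 in secondary males, 1.79, 3.02 and 2.62 in primary females and 0.51, 0.71 and 0.85 in primary males. Secondary females in October were highest, primary females in October came next, and MMP27 was listed at 0 in all 3 libraries of primary males in June, so no difference against that group is given. October females differed between follicle types by 1.00 (SE 0.16, limma adjusted p = 2.36e-05), and the rise since June was 2.20 (SE 0.16, limma adjusted p = 8.16e-11) in secondary females and 0.85 (SE 0.16, limma adjusted p = 0.000119) in primary females.

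MMP9, a gelatinase of inflammatory and epithelial cells, and MMP13, a collagenase, fall outside the rule for members given in full and were singled out after their values were seen. In secondary females in October, MMP9 was at 4.78, 4.36 and 5.11 and MMP13 at 3.64, 3.48 and 3.87. No other library exceeded 0.81 for MMP9 or 0.86 for MMP13. Their log2 differences from primary females in October were 2.07 (SE 0.13) for MMP9 and 1.5 (SE 0.09) for MMP13, given as descriptions because both passed the filter on low values only through this group. The same 3 libraries were those with high keratinocyte markers, 10 of the 12 markers found being at a mean of 1 or more there, with KRT5 at 186 to 203, KRT14 at 72.1 to 82.0 and EPCAM at 4.31 to 5.20. In the other groups KRT5 did not exceed 28.9, KRT14 did not exceed 30.4 and EPCAM did not exceed 1.01. The part of keratinocyte RNA in the MMP1, MMP9, MMP13, MMP15 and MMP27 values of secondary females in October was not tested.

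**Figure D2:**
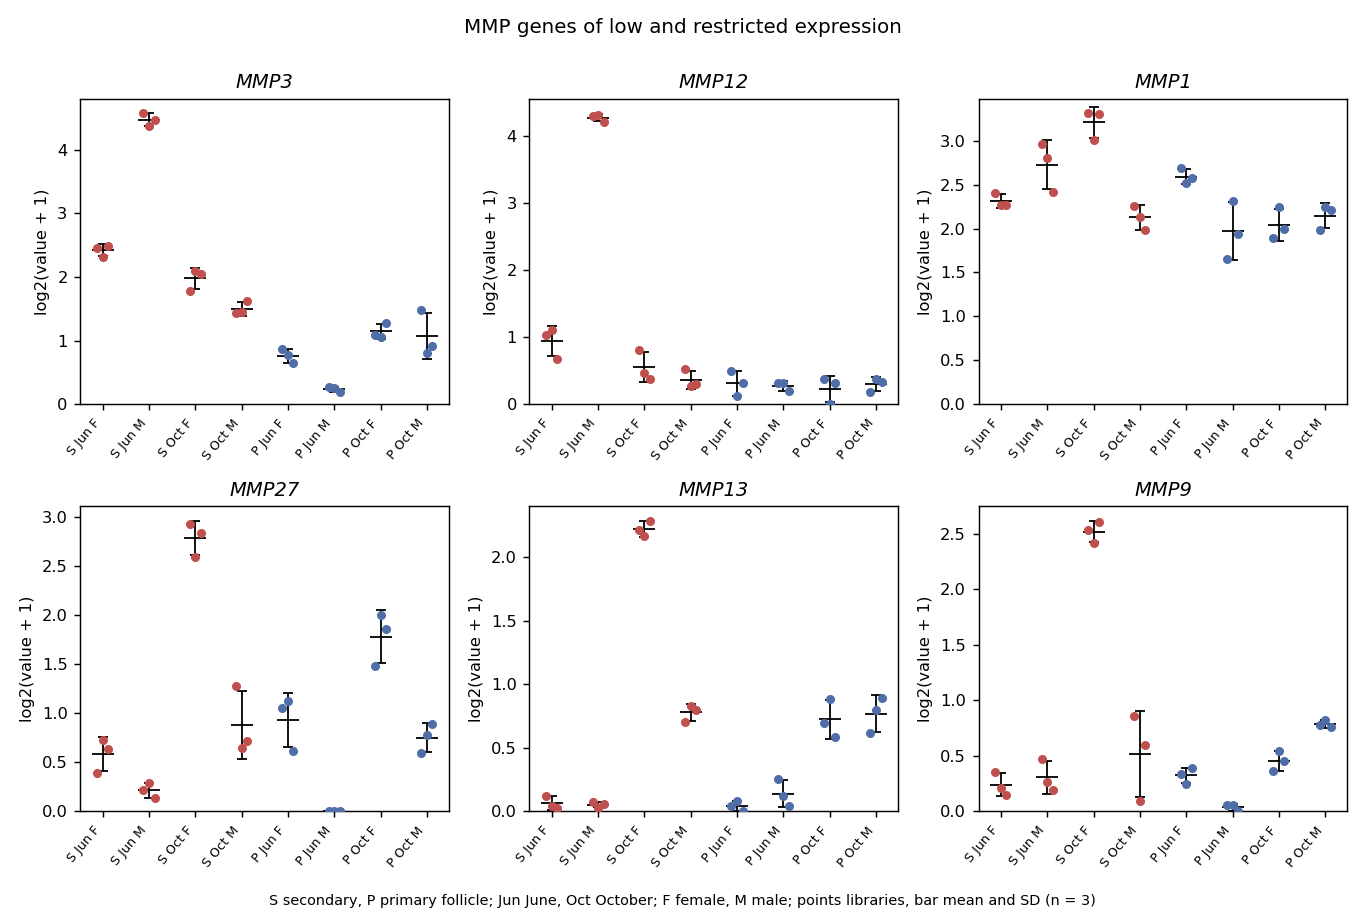
Values of 6 MMP genes in each of the 24 libraries (points) with group means and SD (bars), on a log2(value + 1) axis, 1 panel per gene. MMP3 and MMP12 peak in secondary males in June, and MMP1, MMP9, MMP13 and MMP27 in secondary females in October.

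MMP2 (gene ID 102184364), the gelatinase of mesenchymal cells, which cuts denatured collagen and basement membrane collagen, was abundant in all groups. In June, MMP2 was at 1421, 1396 and 1491 in secondary females, 1779.9, 1878 and 1902 in secondary males, 1875, 1835 and 2040.5 in primary females and 1223, 1275 and 1283 in primary males. In October, MMP2 was at 1726, 1853 and 1824 in secondary females, 1071, 979 and 1041 in secondary males, 1938, 1922 and 2022 in primary females and 952, 936 and 976 in primary males. Females were higher than males in 3 of the 4 pairings without overlap, and secondary cells in June went the other way. The male minus female log2 difference was 0.37 (SE 0.04, limma adjusted p = 7.41e-07) in secondary cells in June. It was -0.81 in secondary cells in October, -0.60 in primary cells in June and -1.04 in primary cells in October, each called by limma (adjusted p = 1.19e-12, 1.43e-10 and 1.52e-14). In June, secondary cells were lower than primary cells in females (-0.42, SE 0.04, limma adjusted p = 7.09e-08) and higher in males (0.56, SE 0.04, limma adjusted p = 3.29e-10). In October males the difference was 0.11 (95% interval 0.02 to 0.20) and was not called.

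Among the membrane-type MMP genes, MMP14, which activates the MMP2 precursor at the cell surface, had its 2 highest group means in primary females in June (532) and secondary females in October (525), against 259.5 to 378 in the other groups. The log2 difference between secondary and primary females was -0.67 (SE 0.05, limma adjusted p = 1.46e-10) in June and 0.47 (SE 0.05, limma adjusted p = 7.6e-08) in October, so its sign turned between months. In males it was 0.10 (95% interval 0.00 to 0.21) in June and 0.13 (95% interval 0.03 to 0.24) in October, neither called. When the compared groups were fitted alone, both were called (limma adjusted p = 0.048 and 0.0208). With a common total the June male difference was called at 0.19 (limma adjusted p = 0.00138). MMP15 (gene ID 102168287) encodes another membrane-type enzyme. In June, MMP15 was at 3.28, 2.9 and 3.12 in secondary females, 1.87, 1.56 and 2.47 in secondary males, 3.78, 3.83 and 3.82 in primary females and 3.15, 3.3 and 4.12 in primary males. In October, MMP15 was at 7.83, 9.13 and 8.78 in secondary females, 4.04, 3.2 and 2.86 in secondary males, 2.76, 2.71 and 2.53 in primary females and 2.73, 2.54 and 2.63 in primary males. Secondary females in October again stood above all other libraries, and secondary males in June lay lowest. The secondary minus primary difference was 1.38 (SE 0.10, limma adjusted p = 2.15e-10) in October females and -0.61 (SE 0.10, limma adjusted p = 2.36e-05) in June males. MMP16 stayed under 2 in every group mean, with 1.70 in primary females in June as the highest and 0.01 in primary females in October as the lowest. MMP24 varied least of these 4, from 3.02 to 4.03 in group means.

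MMP19 (gene ID 102177138), a secreted enzyme of basement membrane proteins, was at 59.2, 60.0 and 61.1 in secondary females, 67.2, 66.0 and 68.1 in secondary males, 71.0, 68.2 and 70.9 in primary females and 29.3, 27.2 and 29.2 in primary males in June. In October, MMP19 was at 62.1, 60.8 and 61.7 in secondary females, 44.7, 47.5 and 48.0 in secondary males, 52.7, 49.7 and 51.9 in primary females and 32.6, 33.9 and 33.6 in primary males. Primary males were lowest in both months and did not overlap any other group. Secondary and primary males differed by 1.21 (SE 0.04, limma adjusted p = 5.58e-17) in June and 0.47 (SE 0.04, limma adjusted p = 9.63e-09) in October, and in females it was -0.22 (SE 0.04, limma adjusted p = 0.000122) in June and 0.25 (SE 0.04, limma adjusted p = 2.69e-05) in October. MMP28 (gene ID 102184088), or epilysin, was at 20.7, 21.2 and 20.8 in secondary females, 21.5, 22.4 and 21.6 in secondary males, 9.59, 8.71 and 9.56 in primary females and 12.7, 12.3 and 13.6 in primary males in June. In October, MMP28 was at 14.8, 15.8 and 15.1 in secondary females, 9.9, 8.38 and 7.08 in secondary males, 10.9, 9.67 and 10.8 in primary females and 10.8, 9.27 and 9.9 in primary males. Both secondary groups in June were above all other libraries, secondary females in October came next, and secondary males in October overlapped the lower primary libraries. The difference was 1.09 (SE 0.08, limma adjusted p = 8.63e-11) in June females, 0.72 (SE 0.08, limma adjusted p = 4.76e-08) in June males and 0.50 (SE 0.08, limma adjusted p = 2.24e-05) in October females. In October males it was -0.23, where libraries overlapped and the call ended without primary replicate 1 or 3 or secondary replicate 2 or 3 (-0.12 to -0.23), without the filter on low values, with median-of-ratios factors and when both groups were fitted alone (-0.22 to -0.23). MMP28 fell from June to October by 1.28 in secondary males (SE 0.08, limma adjusted p = 3.22e-12). MMP11, a stromelysin known from stroma around epithelia, ranged from 14.9 to 26.4 in group means and was lower in males than in females in October in secondary (-0.65, SE 0.09, limma adjusted p = 2.41e-06) and primary cells (-0.70, SE 0.09, limma adjusted p = 9.73e-07).

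ADAM8 (gene ID 106503654) is a membrane protease first described in immune cells. In June, ADAM8 was at 16.9, 16.0 and 18.8 in secondary females, 31.4, 33.5 and 37.9 in secondary males, 10.1, 9.41 and 10.2 in primary females and 6.41, 7.32 and 8.46 in primary males. In October, ADAM8 was at 4.14, 4.14 and 5.11 in secondary females, 7.31, 6.43 and 7.3 in secondary males, 7.43, 5.53 and 7.62 in primary females and 5.19, 5.0 and 5.51 in primary males. Secondary males in June were highest, secondary females in June came next, and in October all groups were low, with secondary females lowest on average. The log2 difference between secondary and primary cells was 0.74 (SE 0.10, limma adjusted p = 3.16e-06) in June females and 2.07 (SE 0.10, limma adjusted p = 5.65e-14) in June males. In October females it was -0.52 (SE 0.10, limma adjusted p = 0.00035), the opposite sign. In October males it was 0.36, a call that ended without primary replicate 2 (0.33), secondary replicate 1 (0.33) or secondary replicate 3 (0.33). ADAM8 fell from June to October in all 4 pairings, by 1.74 in secondary females (SE 0.10, limma adjusted p = 2.85e-12), by 2.14 in secondary males (SE 0.10, limma adjusted p = 4.49e-14), by 0.48 in primary females (SE 0.10, limma adjusted p = 0.000515) and by 0.42 in primary males (SE 0.10, limma adjusted p = 0.00139). CD68 was also highest in secondary males in June, as given for MMP12. Summed immune markers were instead highest in primary females in June, at 52.4 to 59.8 against 37.6 to 43.9 in secondary males in June. In those primary females ADAM8 was at 9.41 to 10.2. The part of CD68 and of the other immune markers in the ADAM8 result was not tested.

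ADAM9 (gene ID 102190933), a widely expressed membrane protease, was at 211, 209.5 and 212 in secondary females, 204, 191 and 183 in secondary males, 247, 265 and 247 in primary females and 309, 316 and 318 in primary males in June. In October, ADAM9 was at 164, 157 and 152 in secondary females, 153, 162 and 168 in secondary males, 166, 189 and 156 in primary females and 152, 146 and 144 in primary males. Primary males in June were highest, primary females in June came next, and each October group lay below its June counterpart without overlap. ADAM9 fell from June to October by 1.09 in primary males (SE 0.06, limma adjusted p = 1.57e-13), by 0.57 in primary females (SE 0.06, limma adjusted p = 1.65e-08), by 0.42 in secondary females (SE 0.06, limma adjusted p = 1.58e-06) and by 0.26 in secondary males (SE 0.06, limma adjusted p = 0.000411). In June it was lower in secondary than in primary cells in females (-0.26, SE 0.06, limma adjusted p = 0.000511) and in males (-0.70, SE 0.06, limma adjusted p = 2.69e-10).

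ADAM33 (gene ID 102170333), a protease expressed in mesenchymal cells such as airway fibroblasts, was at 13.2, 13.9 and 15.3 in secondary females, 15.8, 15.6 and 17.9 in secondary males, 16.3, 15.4 and 17.2 in primary females and 16.6, 14.8 and 15.5 in primary males in June. In October, ADAM33 was at 7.72, 9.21 and 8.48 in secondary females, 10.1, 10.3 and 11.5 in secondary males, 17.8, 15.9 and 19.3 in primary females and 22.5, 21.3 and 23.6 in primary males. June groups lay close to each other, and in October all secondary libraries lay below all primary ones. The male ones among these secondary libraries were those with SOX2 at the primary level. The log2 difference between secondary and primary cells in October was -0.98 (SE 0.08, limma adjusted p = 6.28e-10) in females and -1.01 (SE 0.08, limma adjusted p = 1.62e-09) in males. In June males it was 0.07 (95% interval -0.09 to 0.23) and was not called. The change of this difference between months was -0.78 (SE 0.11, limma adjusted p = 4.92e-06) in females and -1.08 (SE 0.11, limma adjusted p = 3.34e-08) in males, and the sexes did not differ by a called amount in October (-0.04, 95% interval -0.26 to 0.19).

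The main sheddase genes, ADAM10 and ADAM17, had no called log2 difference of 1 or more in the comparisons of type or month. ADAM17, which releases TNF and EGF-family ligands, ranged from 41.8 to 59.2 in group means, and ADAM10, which cuts Notch receptors and cadherins, from 30.0 to 51.7. ADAM10 was lower in secondary cells in June females (-0.38, SE 0.06, limma adjusted p = 4.12e-05), in June males (-0.51, SE 0.06, limma adjusted p = 5.42e-07) and in October females (-0.28, SE 0.06, limma adjusted p = 0.00145). ADAM12, a protease of mesenchymal cells, changed sign between months in both sexes: secondary minus primary was -0.35 in females and -0.25 in males in June, and 0.56 and 0.26 in October, each called by limma. Its change between months was 0.91 (SE 0.06, limma adjusted p = 5.16e-11) in females and 0.51 (SE 0.06, limma adjusted p = 4.64e-07) in males. ADAM19, a relative of ADAM12, ranged from 110.2 to 140.1 and ADAM15 from 21.4 to 32.8.

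The ADAMTS genes for versican- and aggrecan-cutting enzymes, ADAMTS1, ADAMTS4, ADAMTS5 and ADAMTS9, did not move together. ADAMTS1 (gene ID 102172386) was at 202, 203 and 208 in secondary females, 216, 214 and 222 in secondary males, 189, 191 and 193 in primary females and 191, 197 and 211 in primary males in June. In October, ADAMTS1 was at 107, 105 and 105 in secondary females, 83.7, 83.0 and 85.1 in secondary males, 147, 156 and 157 in primary females and 51.0, 53.4 and 50.9 in primary males. Every October library was below every June library, and primary males in October were lowest. The fall from June to October was 0.94 in secondary females (log2 difference -0.94, SE 0.04, limma adjusted p = 4.73e-15), and the log2 differences were -1.36 (SE 0.04, limma adjusted p = 3.62e-18) in secondary males, -0.32 (SE 0.04, limma adjusted p = 5.11e-07) in primary females and -1.93 (SE 0.04, limma adjusted p = 1.38e-20) in primary males. In October, secondary minus primary was -0.53 (SE 0.04, limma adjusted p = 1.66e-10) in females and 0.69 (SE 0.04, limma adjusted p = 1.21e-11) in males, so the sexes had opposite signs. June differences were small, at 0.10 in females, where the call ended without any 1 of the 6 libraries (0.09 to 0.11) or with a common total (0.09), and 0.13 in males, where it ended without primary replicate 1 (0.09).

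ADAMTS4 (gene ID 102176281) was at 8.4, 8.21 and 8.44 in secondary females, 7.18, 5.96 and 7.0 in secondary males, 14.5, 14.8 and 15.2 in primary females and 3.39, 3.73 and 3.91 in primary males in June. In October, ADAMTS4 was at 14.8, 17.1 and 18.0 in secondary females, 20.5, 18.9 and 19.8 in secondary males, 13.9, 11.4 and 13.3 in primary females and 15.3, 15.5 and 15.3 in primary males. Primary males in June were lowest and rose most, secondary groups of both sexes rose, and primary females changed least. The October minus June log2 difference was 0.91 (SE 0.07, limma adjusted p = 7.43e-10) in secondary females, 1.43 (SE 0.07, limma adjusted p = 1.8e-13) in secondary males and 1.81 (SE 0.07, limma adjusted p = 3.09e-15) in primary males. In primary females it was -0.20, a call that ended without June replicate 2 (-0.20), June replicate 3 (-0.18) or October replicate 2 (-0.12), without the filter on low values and when both groups were fitted alone (-0.20). In June, secondary minus primary was -0.76 (SE 0.07, limma adjusted p = 1.52e-08) in females and 0.72 (SE 0.07, limma adjusted p = 2.19e-08) in males.

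ADAMTS5 (gene ID 102172097), the neighbour of ADAMTS1, was low throughout. In June, ADAMTS5 was at 1.86, 1.96 and 1.91 in secondary females, 4.11, 4.17 and 4.02 in secondary males, 7.47, 6.49 and 5.51 in primary females and 1.32, 1.14 and 1.11 in primary males. In October, ADAMTS5 was at 3.72, 3.15 and 2.97 in secondary females, 0.72, 0.93 and 0.82 in secondary males, 1.04, 1.64 and 1.73 in primary females and 0.79, 0.6 and 0.74 in primary males. Primary females in June were highest, and the June order of secondary and primary cells was opposite in the sexes. Secondary minus primary in June was -1.36 (SE 0.10, limma adjusted p = 2.08e-10) in females and 1.22 (SE 0.10, limma adjusted p = 7.18e-10) in males. Across months the log2 difference was -1.60 (SE 0.10, limma adjusted p = 1.45e-11) in primary females and -1.49 (SE 0.10, limma adjusted p = 2.72e-11) in secondary males, and it was 0.55 (SE 0.10, limma adjusted p = 0.000111) in secondary females, a rise.

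ADAMTS9 (gene ID 102179423) was at 28.8, 29.1 and 29.9 in secondary females, 28.0, 28.3 and 29.3 in secondary males, 48.6, 50.3 and 43.9 in primary females and 31.0, 30.6 and 32.9 in primary males in June. In October, ADAMTS9 was at 41.9, 42.2 and 43.4 in secondary females, 70.2, 74.6 and 76.2 in secondary males, 28.1, 31.9 and 33.8 in primary females and 53.6, 54.3 and 52.9 in primary males. Primary females in June stood above the other June groups, and males of both follicle types were highest in October. October minus June was 0.53 (SE 0.06, limma adjusted p = 7.52e-08) in secondary females, 1.34 (SE 0.06, limma adjusted p = 4.6e-15) in secondary males, 0.75 (SE 0.06, limma adjusted p = 1.64e-10) in primary males and -0.59 (SE 0.06, limma adjusted p = 1.34e-08) in primary females. Secondary minus primary was -0.68 (SE 0.06, limma adjusted p = 1.08e-09) in June females, 0.44 (SE 0.06, limma adjusted p = 1.84e-06) in October females and 0.45 (SE 0.06, limma adjusted p = 3.65e-06) in October males. In June males it was -0.14, a call that ended when libraries were rescaled to a common total (-0.05), without the filter on low values (-0.14) or without primary replicate 1 or 3 or secondary replicate 1 or 2 (-0.11 to -0.15).

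ADAMTS6 (gene ID 102172391), linked to fibrillin microfibrils, rose from June to October in all 4 pairings. In June, ADAMTS6 was at 22.1, 20.9 and 22.1 in secondary females, 17.4, 16.8 and 16.2 in secondary males, 23.1, 23.6 and 23.5 in primary females and 26.1, 24.2 and 25.3 in primary males. In October, ADAMTS6 was at 45.0, 41.3 and 42.0 in secondary females, 51.6, 52.3 and 51.5 in secondary males, 44.8, 52.4 and 46.2 in primary females and 54.9, 52.7 and 52.9 in primary males. Every October library was above every June library. The log2 difference was 0.95 (SE 0.05, limma adjusted p = 6.27e-13) in secondary females, 1.57 (SE 0.05, limma adjusted p = 4.19e-17) in secondary males, 0.99 (SE 0.05, limma adjusted p = 3.37e-13) in primary females and 1.06 (SE 0.05, limma adjusted p = 6.19e-14) in primary males. Between follicle types it differed by -0.56 (SE 0.05, limma adjusted p = 3.29e-09) in June males, and by -0.11 (95% interval -0.22 to 0.00) in June females and -0.04 (95% interval -0.15 to 0.06) in October males, which were not called.

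**Figure D3:**
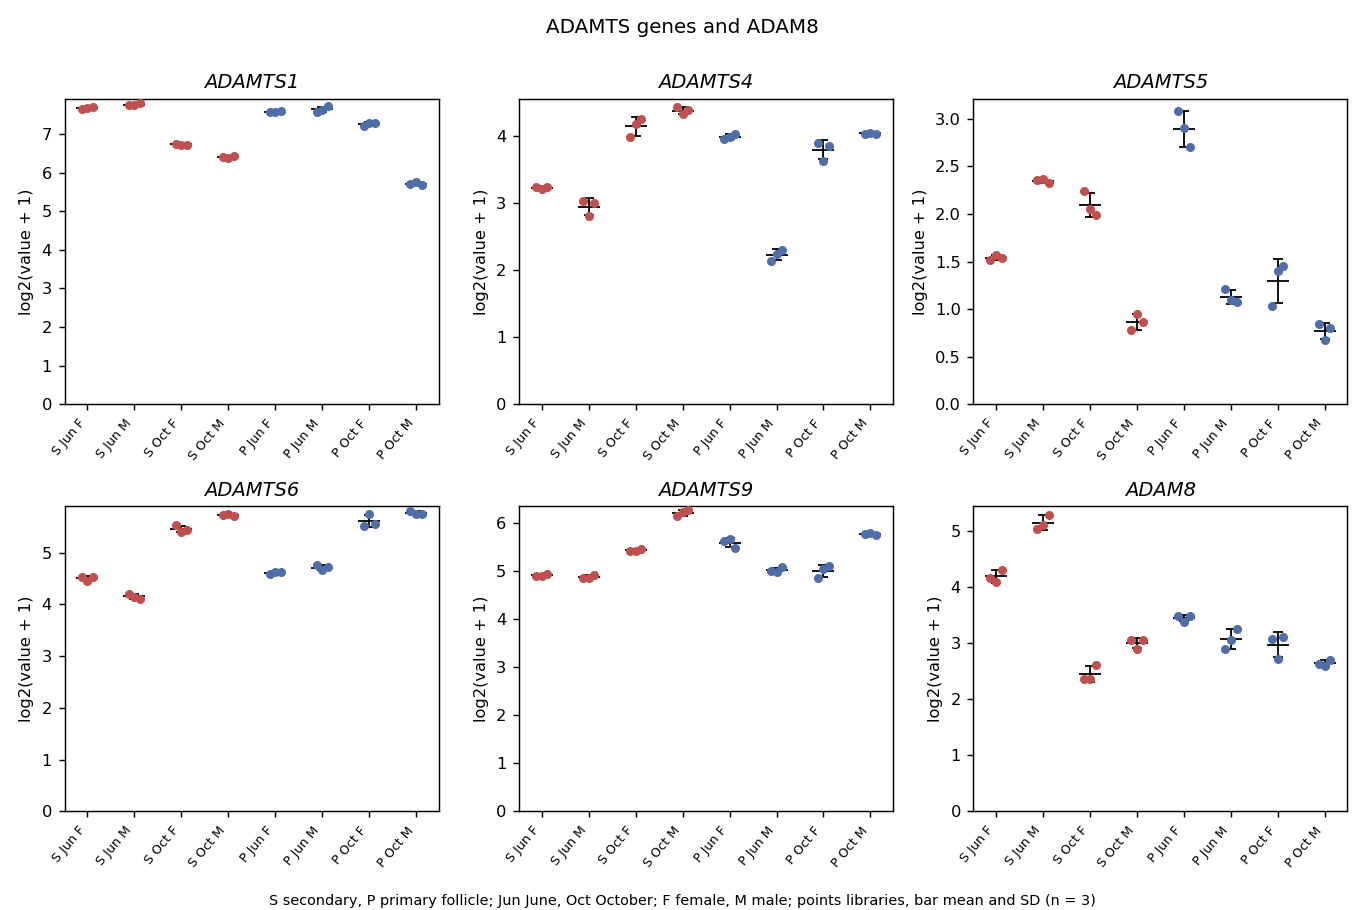
Values of 5 ADAMTS genes and ADAM8 in each library (points) with group means and SD (bars), on a log2(value + 1) axis, 1 panel per gene. ADAMTS6 is higher in October in every pairing, ADAMTS1 and ADAM8 are lower, and the 2 June sexes of ADAMTS5 show opposite orders of secondary and primary cells.

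ADAMTS17 (gene ID 102180429), also linked to fibrillin, was at 5.12, 4.89 and 4.88 in secondary females, 5.16, 5.0 and 5.18 in secondary males, 4.96, 4.28 and 5.36 in primary females and 8.04, 8.98 and 8.53 in primary males in June. In October, ADAMTS17 was at 5.72, 5.97 and 6.27 in secondary females, 4.82, 4.67 and 4.45 in secondary males, 2.42, 1.96 and 3.12 in primary females and 8.33, 8.29 and 7.54 in primary males. Secondary groups lay close to each other, whereas primary males were high in both months and primary females in October were lowest. Secondary minus primary was 1.01 (SE 0.09, limma adjusted p = 3.31e-09) in October females, -0.68 (SE 0.09, limma adjusted p = 5.16e-06) in October males and -0.64 (SE 0.09, limma adjusted p = 1.8e-06) in June males. Primary females fell from June to October (-0.75, SE 0.09, limma adjusted p = 2.81e-07). ADAMTS10, the third gene of this group, ranged from 11.8 to 18.4 in group means.

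The procollagen N-proteinase genes, whose products remove the amino-terminal propeptide of fibrillar procollagens, were ADAMTS2, ADAMTS3 and ADAMTS14. ADAMTS14 (gene ID 102171406) was at 10.9, 10.5 and 11.0 in secondary females, 10.4, 11.9 and 12.2 in secondary males, 8.64, 8.14 and 10.4 in primary females and 7.32, 7.5 and 8.0 in primary males in June. In October, ADAMTS14 was at 12.1, 12.8 and 13.3 in secondary females, 18.3, 16.8 and 17.8 in secondary males, 10.6, 9.09 and 11.4 in primary females and 17.7, 17.5 and 17.1 in primary males. Both male groups in October were above all other libraries. October minus June was 0.58 (SE 0.08, limma adjusted p = 1.57e-06) in secondary males and 1.10 (SE 0.08, limma adjusted p = 5.81e-11) in primary males, and 0.18 (95% interval 0.01 to 0.34) in primary females, which was not called. The primary female difference was called with a common total (0.19, limma adjusted p = 0.0364) and with a replicate block (0.18, limma adjusted p = 0.0415). In June males, secondary cells were higher than primary cells (0.53, SE 0.08, limma adjusted p = 4.42e-06). ADAMTS2 ranged from 34.4 in primary males in June to 80.6 in secondary females in October and rose from June to October in primary males (0.93, SE 0.06, limma adjusted p = 3.26e-12), secondary females (0.70, SE 0.06, limma adjusted p = 6.06e-10) and secondary males (0.51, SE 0.06, limma adjusted p = 7.43e-08). In primary females it fell (-0.21, SE 0.06, limma adjusted p = 0.00432), a call that ended when both groups were fitted alone. ADAMTS3 stayed between 0.603 and 2.29. ADAMTS7 and ADAMTS12, whose products cut cartilage oligomeric matrix protein, ranged from 6.53 to 12.8 and from 0.83 to 3.32. ADAMTS12 fell from June to October in primary males (-1.08, SE 0.09, limma adjusted p = 1.16e-09).

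TIMP3 (gene ID 102190027), the inhibitor that binds to the matrix and also blocks ADAM17 and several ADAMTS enzymes, was lower in secondary than in primary cells in both months and both sexes. In June, TIMP3 was at 442, 435 and 432 in secondary females, 532, 519 and 516 in secondary males, 577, 593 and 552 in primary females and 1004, 1014 and 1030.2 in primary males. In October, TIMP3 was at 279.9, 265 and 264 in secondary females, 319, 336 and 319 in secondary males, 662, 749 and 658 in primary females and 401, 399 and 403 in primary males. Secondary and primary libraries did not overlap in any of the 4 pairings, and primary males in June were highest. The October male pairing uses the secondary libraries in which SOX2 was at the primary level. The log2 difference was -0.39 (SE 0.04, limma adjusted p = 7.98e-08) in June females, -0.96 (SE 0.04, limma adjusted p = 8.52e-15) in June males, -1.35 (SE 0.04, limma adjusted p = 5.96e-17) in October females and -0.30 (SE 0.04, limma adjusted p = 1.6e-05) in October males. Its size differed between sexes in both months, by -0.56 (SE 0.06, limma adjusted p = 1.01e-07) in June and 1.04 (SE 0.06, limma adjusted p = 6.95e-12) in October (male minus female). By October TIMP3 fell in secondary females (-0.69, SE 0.04, limma adjusted p = 6.15e-12), secondary males (-0.69, SE 0.04, limma adjusted p = 4.5e-12) and primary males (-1.34, SE 0.04, limma adjusted p = 3.73e-17), and rose in primary females (0.26, SE 0.04, limma adjusted p = 2.69e-05).

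TIMP1 (gene ID 100860924), a soluble inhibitor of most MMPs, was at 2181, 2104 and 2032 in secondary females, 2308, 2340.4 and 2503 in secondary males, 1761, 1762 and 1792 in primary females and 1597, 1536 and 1567 in primary males in June. In October, TIMP1 was at 1729.8, 1705 and 1757 in secondary females, 2021, 1889.5 and 1977 in secondary males, 1759, 1513 and 1686 in primary females and 1676, 1682 and 1749 in primary males. Both June secondary groups were above all other libraries. Secondary minus primary was 0.25 (SE 0.05, limma adjusted p = 0.000101) in June females, 0.60 (SE 0.05, limma adjusted p = 1.05e-10) in June males and 0.20 (SE 0.05, limma adjusted p = 0.0024) in October males, and 0.07 (95% interval -0.03 to 0.16) in October females, which was not called. October minus June was -0.28 (SE 0.05, limma adjusted p = 2.06e-05) in secondary females and -0.28 (SE 0.05, limma adjusted p = 1.71e-05) in secondary males. TIMP2 (gene ID 102178107), which bridges MMP14 and the MMP2 precursor, was at 433, 422 and 426 in secondary females, 493, 495 and 513 in secondary males, 388, 388 and 391 in primary females and 394, 398 and 399 in primary males in June. In October, TIMP2 was at 469, 462 and 467 in secondary females, 406, 403 and 402 in secondary males, 455, 440.3 and 467 in primary females and 365, 375 and 366 in primary males. TIMP2 varied least of the 3, with the highest values in secondary males in June and the lowest in primary males in October. Secondary minus primary was 0.13 (SE 0.03, limma adjusted p = 0.000875) in June females and 0.33 (SE 0.03, limma adjusted p = 2.82e-09) in June males. By October it rose in both female groups, by 0.13 (SE 0.03, limma adjusted p = 0.00145) in secondary and 0.22 (SE 0.03, limma adjusted p = 2.54e-06) in primary cells, and the difference was -0.31 (SE 0.03, limma adjusted p = 1.07e-08) in secondary males.

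The sum of the TIMP values divided by the sum of the MMP values gives a ratio of inhibitor to protease signal within a library, in which TIMP1 and MMP2 weigh most. It was 1.57 ± 0.082 in secondary females and 1.44 ± 0.03 in secondary males in June, and 1.07 ± 0.057 in primary females and 1.79 ± 0.048 in primary males in June. In October it was 1.00 ± 0.05 in secondary females and 1.92 ± 0.034 in secondary males, and 1.15 ± 0.039 in primary females and 1.92 ± 0.021 in primary males (mean ± SD, n = 3 each). Males were above females without overlap in 3 of the 4 pairings, and the June secondary groups went the other way. This ratio was not part of the fit across genes and was not tested. Whether the values are per transcript length is not given, so the ratio cannot be read as one of transcript numbers.

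**Figure D4:**
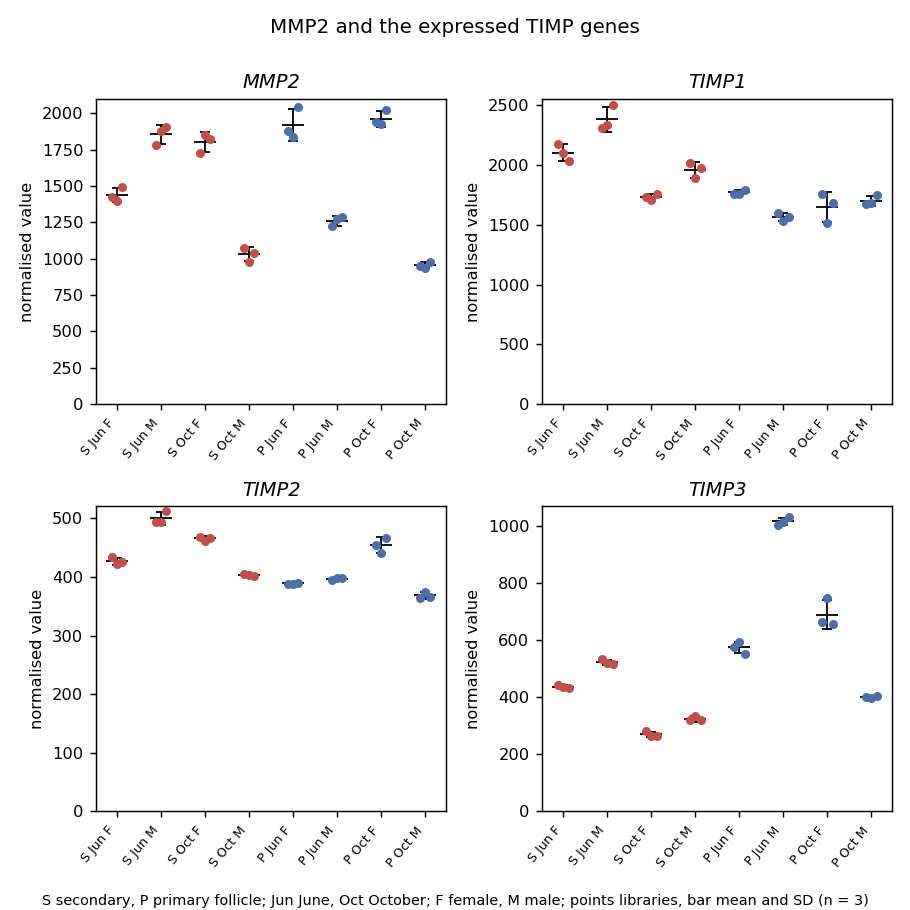
Values of MMP2, TIMP1, TIMP2 and TIMP3 in each library (points) with group means and SD (bars), on a linear axis starting at 0, 1 panel per gene. MMP2 is higher in females than in males except in secondary cells in June, and TIMP3 is lower in secondary than in primary cells in all 4 pairings.

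The sexes were compared within each follicle type and month. Males against females, 20 of 37 members were called in secondary cells in June (13 higher in males and 7 lower), against 39.5% of all tested genes (20.9% higher and 18.6% lower). In secondary cells in October 32 were called (12 higher, 20 lower), against 40.4% of all genes (19.5% and 20.9%). The male libraries of that comparison are those in which SOX2 was at the primary level, and the part of this in its counts was not tested. In primary cells 26 were called in June (7 higher, 19 lower), against 45.4% (23.1% and 22.3%), and 25 in October (10 higher, 15 lower), against 33.6% (15.8% and 17.8%). When libraries were rescaled to a common total, the split in secondary cells in June became 16 higher and 5 lower. In secondary cells in October, 11 of 14 MMP genes were lower in males and 1 was higher, and in primary cells in June 8 were lower and 2 higher. MMP9 and MMP13 passed the filter on low values only through secondary females in October, and MMP16 only through primary females in June. Both MMP counts are therefore descriptions. In secondary cells in October, 9 of the 10 tested keratinocyte markers were also lower in males and 0 higher, and their part in the MMP count was not tested.

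Some members differed between follicle types, or between months, in opposite directions in the sexes. In June, 23 members were called in both sexes for secondary against primary, 15 with the same sign and 8 with opposite signs: ADAMTS2, ADAMTS4, ADAMTS5, ADAMTS7, MMP2, MMP16, MMP19 and MMP24. These 8 are 34.8% of the 23, where 19.9% of all genes called in both sexes had opposite signs. In 7 of the 8 (MMP24 being the exception) females were lower and males higher in secondary cells. In October, 12 members were called in both sexes and 4 had opposite signs (ADAM8, ADAMTS1, ADAMTS17 and MMP28), 33.3% against 36.2% of all genes. From June to October, 7 of 27 secondary members had opposite signs (ADAMTS3, ADAMTS5, ADAMTS7, MMP1, MMP2, MMP14 and TIMP2), 25.9% against 18% of all genes. In primary cells 9 of 25 did (ADAMTS2, ADAMTS3, ADAMTS4, ADAMTS9, MMP16, MMP19, MMP24, TIMP2 and TIMP3), 36% against 18.8%. Every call between follicle types in October males, the 4 with opposite signs included, uses the 3 secondary libraries in which SOX2 was at the primary level. Every call from June to October in secondary males, the 7 with opposite signs included, uses the same libraries. MMP16, counted in June and in primary cells, passed the filter on low values only through primary females in June. MMP12 and MMP13, among the members with the same sign, each passed it only through a single group. The shares that include these genes are therefore descriptions.

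The difference between the sexes was itself tested. The type difference differed between sexes for 28 of 37 members in June (41.2% of all genes were called) and for 21 in October (26.7%). The month difference differed between sexes for 28 members in secondary cells (37.7% of all genes) and for 24 in primary cells (36.8%). The type difference changed between months for 28 members in females (40.2% of all genes) and for 27 in males (43.9%). The 37 members include MMP9, MMP12, MMP13 and MMP16. Each of these passed the filter on low values only through a single group, so the interaction counts are descriptions. Of the 21 October members, the type difference was more positive in males for 10 (13.7% of all genes) and more negative for 11 (13%), and these were 6 and 13 of 19 when libraries were rescaled to a common total. The June interactions of 4 members (male minus female) were 2.58 (SE 0.15, limma adjusted p = 1.81e-12) for ADAMTS5, 1.42 (SE 0.06, limma adjusted p = 6.04e-15) for MMP19, 1.48 (SE 0.11, limma adjusted p = 1.13e-10) for ADAMTS4 and 0.97 (SE 0.06, limma adjusted p = 2.34e-11) for MMP2. In October they were -1.69 (SE 0.13, limma adjusted p = 3.73e-10) for ADAMTS17, 1.22 (SE 0.05, limma adjusted p = 8.83e-14) for ADAMTS1, -1.18 (SE 0.21, limma adjusted p = 0.00012) for MMP1 and -1.13 (SE 0.15, limma adjusted p = 2.68e-06) for MMP15.

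**Figure D5:**
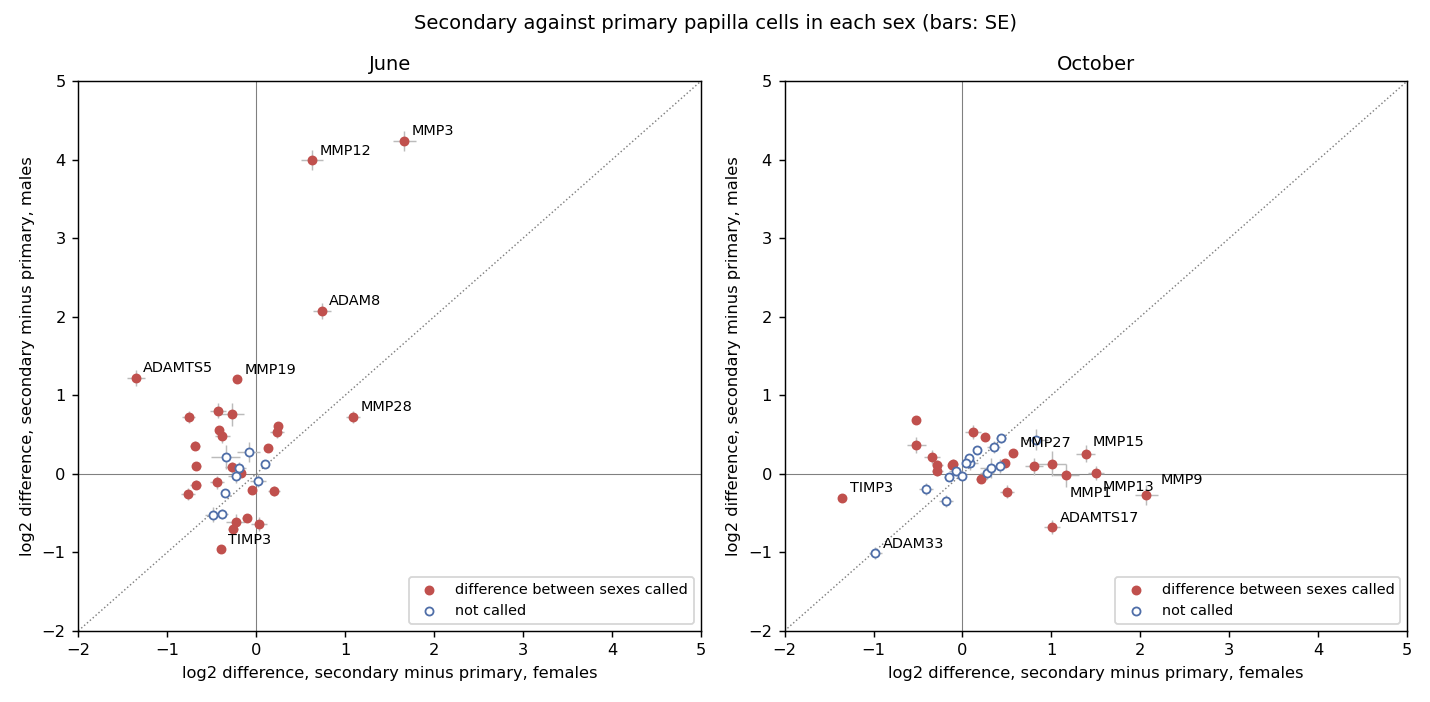
Secondary minus primary log2 differences of the 37 tested members in females (x axis) and males (y axis), in June and October, with bars of 1 SE and a dotted line of equality, red points being members whose difference differed between the sexes by a called amount. MMP3, MMP12 and ADAM8 lie far above the line in June, ADAMTS5 lies below 0 in females and above 0 in males, and TIMP3 is below 0 on both axes in both months.

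Genes for factors, substrates and partners of these families were described from fixed lists. Each list was chosen with earlier results of these data known and is given by counts, beside the percentages of all genes above. Of 23 transcription factor and cytokine genes known to act on MMP genes, in June females 3 were higher and 12 lower in the secondary follicle, and 14 were higher and 7 lower in June males. In October females 14 were higher and 2 lower, and in October males 7 were higher and 2 lower. In June females FOSB, a subunit of the AP-1 transcription factor, differed by -3.07 (SE 0.06, limma adjusted p = 1.58e-20) and FOS by -1.80 (SE 0.04, limma adjusted p = 2.69e-19). In June males FOSL1, another AP-1 subunit, differed by 2.22 (SE 0.06, limma adjusted p = 4.32e-19) and IL6, an inflammatory cytokine, by 3.59 (SE 0.15, limma adjusted p = 3.34e-15), while FOS differed by -1.59 (SE 0.04, limma adjusted p = 7.43e-19). In October, 16 of the 23 were lower than in June and 1 was higher in primary females, with FOS at -2.97 (SE 0.04, limma adjusted p = 4.78e-23).

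Of 24 genes for matrix proteins cut by these enzymes, 19 were higher and 0 lower by limma in secondary than in primary females in October, with a median log2 difference of 0.49, where 18.3% of all genes were higher. At an unadjusted p under 0.05 the number lower was also 0. In the same comparison 9 of 10 tested keratinocyte markers were higher, with a median log2 difference of 1.51, and their part in this list's change was not tested. Among the 19 higher matrix genes were the small proteoglycan genes LUM (1.62, SE 0.06, limma adjusted p = 1.69e-15) and DCN (0.99, SE 0.04, limma adjusted p = 1.48e-14) and the versican gene VCAN (1.19, SE 0.05, limma adjusted p = 1.76e-14). In June the matrix list split 9 higher and 12 lower in females and 8 higher and 13 lower in males, and in October males 10 higher and 5 lower. From June to October 16 were higher and 5 lower in secondary females, 14 and 6 in secondary males, 4 and 16 in primary females, and 10 and 11 in primary males. COL3A1 rose by 1.15 (SE 0.03, limma adjusted p = 8.37e-18) in secondary females and 1.5 (SE 0.03, limma adjusted p = 3.82e-20) in secondary males. Its mean was also higher in October than in June in primary females (4462 against 4082) and primary males (6911 against 4922).

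Of 22 activators, inhibitors and partners, 7 were higher and 10 lower in secondary cells in June females, 8 and 8 in June males, 7 and 7 in October females, and 2 and 4 in October males. PCSK6, a proprotein convertase, was higher in secondary cells in June in females (1.31, SE 0.10, limma adjusted p = 3.26e-10) and males (3.05, SE 0.10, limma adjusted p = 5.58e-17). PLAUR, the urokinase receptor, was higher in secondary cells in June males (1.26, SE 0.05, limma adjusted p = 9.21e-16) and in October females (0.72, SE 0.05, limma adjusted p = 4.8e-11). SERPINE2, an inhibitor of serine proteases, fell from June to October in secondary males (-4.52, SE 0.09, limma adjusted p = 2.58e-20) and secondary females (-1.46, SE 0.09, limma adjusted p = 9.68e-12). It also fell in primary males (-1.68, SE 0.09, limma adjusted p = 5.93e-13), and its mean in primary females was 9.52 in June and 4.82 in October. Of 9 related proteases and ADAMTS-like genes, 3 were higher and 4 lower in June females and 3 and 5 in June males. PAPPA, which cuts IGF-binding proteins, was lower in secondary cells in June females (-1.99, SE 0.09, limma adjusted p = 1.64e-14) and June males (-3.13, SE 0.09, limma adjusted p = 2.2e-18). It was also lower in October females (-0.24, SE 0.09, limma adjusted p = 0.0357) and October males (-0.73, SE 0.09, limma adjusted p = 2.01e-06). Of 22 membrane proteins released by ADAM enzymes, 6 were higher and 9 lower in June females, 10 and 6 in June males, 8 and 5 in October females and 5 and 5 in October males. EREG, a ligand of the EGF receptor, was higher in secondary cells in June males (4.36, SE 0.12, limma adjusted p = 9.35e-19) and fell there by October (-4.10, SE 0.12, limma adjusted p = 4.07e-18). Between June and October, 10 of these 22 were lower and 6 higher in secondary females, 12 and 4 in secondary males, 12 and 3 in primary females and 14 and 2 in primary males.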

How the data were processed

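RNA sequencing of 24 libraries of dermal papilla cells (8 groups of 3) gave 1 expression table per library. Per the labels' protocols, RNA was extracted with RNAiso Plus and paired-end libraries were made with NEBNext Ultra reagents. The submitters' processing notes name kallisto 0.46.1 and sleuth 0.30.0, with no role or order. As deposited, each table holds 1 normalised signal per gene, and the sources used here give neither genome build, scaling nor read depth.

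Groups came from the labels. Values were taken as log2(value + 1), so differences of low genes are understated. Genes with a value of 1 or more in at least 3 libraries were fitted with limma 3.58.1 in R 4.3.3 (statmod 1.5.0), with 8 group means, an intensity trend and robust variance, checked on simulated data. P-values were adjusted by Benjamini-Hochberg over all tested genes in each of 12 comparisons of 1 factor and 6 interactions, and 0.05 was the threshold.

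Given in full were members called in a comparison of type or month with a log2 difference of at least 1 and a group mean of at least 5, every tested TIMP gene, and the 4 members with the highest means. The members and lists were chosen with earlier results of these data known. Alternatives were another pseudocount, filters, scalings, the compared groups alone, no robust variance, a replicate block and leaving out each library.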

Additional observations from a re-analysis of the deposited data

Results flagged for a closer look

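Differences between groups in the same contrast were tested as limma interactions on the log2(value + 1) scale, and those of 1.5 or more in size are given here for members reported in full. All were called at an adjusted p under 0.05, and no cause was tested. MMP12 passed the filter on low values only through secondary males in June, so each of its values here, which all use that group, is a description.

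In females, the secondary minus primary difference in October exceeded that in June by 2.16 for ADAMTS5 and by 1.62 for MMP15. In males, the October difference minus the June difference was -3.93 for MMP12, -3.8 for MMP3 and -1.71 for ADAM8.

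Male minus female, the secondary minus primary difference in June was 3.37 for MMP12, 2.58 for ADAMTS5 and 2.57 for MMP3. In October it was -1.69 for ADAMTS17.

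The October minus June difference in secondary cells, again male minus female, was -3.52 for MMP12, -2.53 for MMP3, -2.04 for ADAMTS5 and -1.53 for MMP27. In primary cells it was 2.01 for ADAMTS4, -1.61 for ADAMTS1 and -1.6 for TIMP3.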

How the results depend on the processing

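The total number of called members moved by no more than 1.5 times in any of the 18 comparisons under the alternatives run. Counts in 1 direction moved further in 2 cases: members lower in secondary cells in October females went from 10 to 6 with the compared groups alone, and members with a more positive type difference in October males went from 10 to 6 with a common total. Leaving out 1 library at a time gave 25 to 27, 26 to 28, 25 to 28 and 14 to 16 calls between follicle types (June females, June males, October females, October males), and 24 to 30, 31 to 32, 27 to 29 and 30 to 32 between months (secondary females, secondary males, primary females, primary males). It gave 16 to 19, 29 to 32, 24 to 26 and 21 to 24 between sexes (secondary June, secondary October, primary June, primary October). Of 5292 such member results, 218 lost a call, 53 gained one and 0 reversed. Of 666 member results, calls lost and gained were 27 and 10 with the compared groups alone, 21 and 18 with a common total, 4 and 3 with median-of-ratios factors, 20 and 6 without the filter on low values, 7 and 11 with a pseudocount of 0.1, and 1 and 0 without robust variance, while the filter of 6 libraries changed none of the 594 results it left. That filter removed MMP9, MMP12, MMP13 and MMP16, so none of their calls could be made under it. The 1 reversal was MMP27 for sex by month in primary cells, 1.596 with a pseudocount of 0.1, where 1 group is listed at 0. A common total shifted the median of all genes to -0.167 for type by month in males and -0.1223 for sex by month in secondary cells.

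Whether replicate numbers pair the libraries is not labelled and was not settled. Deviations of 84 same-numbered pairs had a median r of 0.0335 (-0.281 to 0.348), with 25 pairs over 0.1. For 168 differently numbered pairs the median was -0.0167 (-0.405 to 0.512), with 33 over 0.1. Of 24 libraries, 11 correlated best with their own number, so a weak pairing remains possible. With a replicate block, calls were 29, 28, 30 and 16 between follicle types, 32, 32, 30 and 32 between months and 19, 32, 26 and 25 between sexes, in the orders above, with 1 call lost and 8 gained among member results. Unknown depth leaves the counting error of low genes such as MMP12, MMP16 and MMP27 unmeasured.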
